A study of Homo sapiens with 7 samples.

Results

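Interferon-stimulated genes are the genes that cells switch on after sensing interferon, and their products block viral replication at many steps. The set was defined by gene name, with earlier results of these data already known. It was given as 42 names, which stand for 41 genes, since DDX58 and RIGI are an old and a current symbol of the same gene. Of these, 39 were measured through a transcript cluster (a group of probes for a transcript) annotated to a single symbol, among 17958 genes measured in all. STAT2 and GBP1 were not analysed here, because no cluster carried either symbol alone.

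Type I interferons bind the receptor IFNAR1 and IFNAR2, and the kinases JAK1 and TYK2 then activate STAT proteins. STAT2, a STAT partner and IRF9 form a complex that binds the interferon-stimulated response element in the promoters of these genes. In tumour cells the genes can also be on at a low level without added interferon.

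The arrays come from SKOV3, a human ovarian carcinoma cell line, and compare 3 clones labelled CtBP1 knockdown, 2 labelled CtBP2 knockdown and 2 scramble controls. All 7 carry a stable lentiviral insert and were kept in puromycin, the labels call the subtype serous and report a western blot check of the knockdowns, and no interferon or virus challenge is named. CtBP1 and CtBP2 are related transcriptional co-repressors, and the stated aim was to find genes that the 2 regulate differently. Each clone was hybridised to 1 Affymetrix Human Gene 1.1 ST array, and the deposited log2 signals of the 17958 genes ran from 0.8 to 11.89. A difference of 1 on this scale is a change by a factor of 2. The labels do not say how the cultures of a group were grown. Each p-value reflects spread among arrays, which can hold differences between clones as well as technical ones. Arrays hold RNA of whole cultures, in which fewer cells making a transcript and less transcript per cell cannot be told apart.

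The brightest CTBP2 cluster read 4.64 and 4.22 in CtBP2 knockdown and 5.7 and 6.14 in scramble. This is a log2 difference of -1.49 ± 0.21 (SE of the limma fit, adjusted p = 0.18). With all clusters of the gene averaged, the difference was smaller, at -0.78 (limma adjusted p = 0.297). The CTBP1 probe read 5.11, 6.13 and 6.13 where CtBP1 knockdown was the label and 5.69 and 6.37 in scramble, so these groups overlapped and the RNA does not check that label. Scramble array 1 stood apart. It correlated with the others at 0.926 to 0.942 over all genes, while the other 6 correlated with each other at 0.971 to 0.993. Its signals were also less spread, with an interquartile range of 2.2 on the log2 scale, against 2.85 to 3.15 on the other 6. On it 15 dividing-cell genes had a median of -1.57 relative to their means, against 0.24 on scramble array 2. Of 13 ovarian carcinoma and epithelial markers, KRT8 and ERBB2 were bright on every array, at 8.35 to 9.35 and 8.52 to 9.58. In contrast, WT1, CDH1 and CLDN4 were at most 3.27. The 13 summed to 71.5 to 77.1 under the CtBP1 knockdown label, 78.1 and 74.4 in CtBP2 knockdown, and 68.4 and 71.7 in scramble. Of 11 leukocyte markers, PTPRC lay between 1.5 and 1.73 and CD68 alone between 5.9 and 7.11, and the 11 summed to 25.8 to 27.5 under the CtBP1 knockdown label, 26.5 on both CtBP2 knockdown arrays, and 30.0 and 26.4 in scramble. The 12 fibroblast and endothelial markers summed to 23.9 to 25.5 under the CtBP1 knockdown label, 23.7 and 24.1 in CtBP2 knockdown, and 27.9 and 24.0 in scramble. The part that scramble array 1, its narrower spread, dividing-cell genes or other cells have in the results was not tested. For the genes described in full, the difference against a single control is given where leaving out a scramble array moved it by over 1.5 times.

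Many interferon-stimulated genes gave dim signals in these cells. On all 7 arrays 19 of the 39 lay under 3 (48.7%, against 38.7% of all genes), and 7 lay over 4 (17.9%, against 29.9% of all genes): IFI35, IFITM1, IFITM2, IFITM3, HERC6, PARP14 and SAMD9. Signals of different probes are not RNA amounts, and the deposited table gives no detection call, so a dim signal is not a measured absence. The range over the 7 arrays had a median of 0.67 among the 39 genes, against 0.72 over all genes. It was over 1 in 14 of them (35.9%, against 32.5% of all genes) and under 0.5 in 12. The plot of level against range shows the TRIM22, IFITM1 and IFITM2 probes as the most variable of the set, with ranges of 2.59, 2.48 and 2.05, and ISG15 and XAF1 as the flattest, with 0.03 and 0.08. Identical values on several arrays occurred in 13 of the 39 genes and in 39.98% of all genes.

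**Figure D1:**
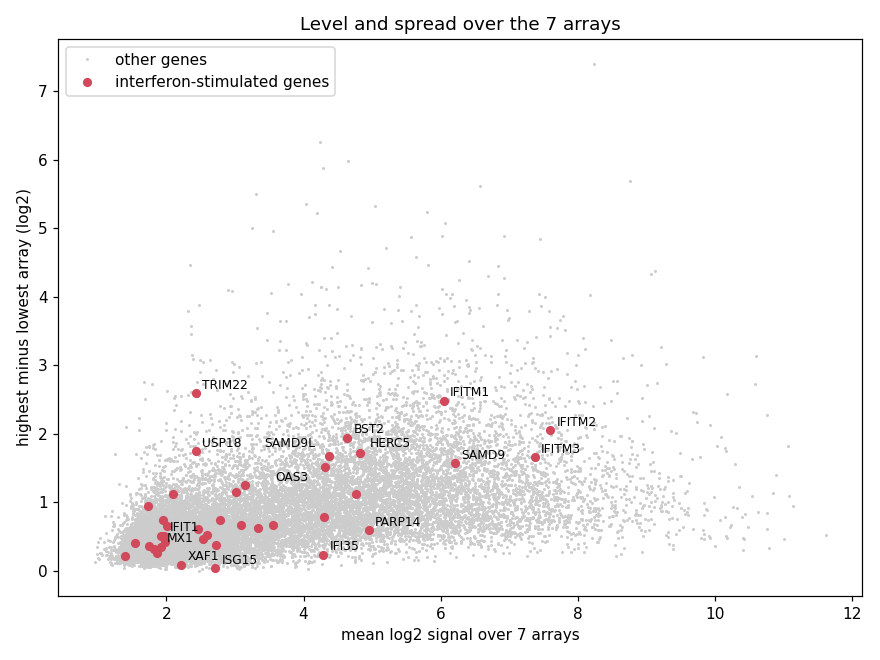
Each point is a gene, with its mean log2 signal over the 7 arrays on the x axis and the highest minus the lowest array (log2) on the y axis; red points are the 39 interferon-stimulated genes and grey points all other genes. Many red points sit at the dim left end, and TRIM22 and IFITM1 have ranges of 2.59 and 2.48.

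Promoters of these genes carried the letters of the response element more often than promoters in general. RefSeq promoters of GRCh38.p14, from 250 bases before to 50 after the first start listed, were found for 30 of the 39 genes. The core letters of the response element, GAAA, any 2 bases and GAAA again, were searched on both strands and occurred in 20 of these 30 (66.7%), against 3.65% of 27305 promoters of the same length. With every listed start counted, the shares were 73.3% and 4.38%, and RSAD2 and PARP9 were added. The letters TTCNNNGAA, as in sites bound by STAT dimers, occurred in 9 of the 30 (30.0%), against 7.88% of all promoters; they read the same on both strands and can overlap the first motif. These matches are a description of letters and not of binding. Printed here are the promoters of OAS3, HERC5, IFITM1 and DDX60, the genes with the smallest unadjusted p in CtBP2 knockdown against scramble, and capitals mark each match to the response element core or to its reverse complement. They lie at chr12:112938224-112938523 for OAS3 (plus strand), chr4:88456869-88457168 for HERC5 (plus strand), chr11:313790-314089 for IFITM1 (plus strand) and chr4:168318703-168319002 for DDX60 (minus strand), and each is written 5′ to 3′ along the gene.
OAS3: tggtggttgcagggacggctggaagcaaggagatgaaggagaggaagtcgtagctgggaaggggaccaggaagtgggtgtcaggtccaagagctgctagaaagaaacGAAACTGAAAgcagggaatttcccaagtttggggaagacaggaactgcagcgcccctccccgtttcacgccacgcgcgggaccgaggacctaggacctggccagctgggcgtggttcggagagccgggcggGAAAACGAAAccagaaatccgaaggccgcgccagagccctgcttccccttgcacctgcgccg
HERC5: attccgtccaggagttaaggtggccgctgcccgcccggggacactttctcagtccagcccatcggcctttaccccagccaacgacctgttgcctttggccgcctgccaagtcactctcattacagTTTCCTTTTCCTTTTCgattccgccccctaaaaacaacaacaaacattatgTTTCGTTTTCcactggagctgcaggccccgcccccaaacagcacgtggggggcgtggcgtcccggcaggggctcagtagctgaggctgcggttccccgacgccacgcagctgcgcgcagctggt
IFITM1: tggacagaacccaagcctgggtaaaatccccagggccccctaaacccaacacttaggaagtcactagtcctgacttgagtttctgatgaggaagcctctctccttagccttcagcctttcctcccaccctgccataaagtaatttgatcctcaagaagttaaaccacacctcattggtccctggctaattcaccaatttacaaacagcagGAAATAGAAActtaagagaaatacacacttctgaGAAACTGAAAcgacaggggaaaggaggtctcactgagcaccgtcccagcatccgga
DDX60: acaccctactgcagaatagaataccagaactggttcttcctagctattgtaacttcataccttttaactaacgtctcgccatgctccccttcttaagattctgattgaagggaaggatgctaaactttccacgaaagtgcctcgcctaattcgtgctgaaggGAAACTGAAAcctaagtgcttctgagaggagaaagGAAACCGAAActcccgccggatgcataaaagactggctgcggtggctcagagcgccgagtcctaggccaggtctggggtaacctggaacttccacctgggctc
OAS3 has matches starting at positions -143 and -12, where -1 is the last base before the start, and HERC5 has 3 on the opposite strand, at -125, -119 and -74, of which the first 2 overlap. IFITM1 has matches at -40 and -6, and its only TTCNNNGAA match, ttctgagaa at -12, overlaps the second of them. DDX60 has matches at -88 and -53 and a TTCNNNGAA match, ttccacgaa, at -124.

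The differences between groups are given here by motif, with no test. In the arrays labelled CtBP1 knockdown against scramble, the 20 genes with it had a median log2 difference of 0.08 (range -0.59 to 0.93) and the 10 without it -0.1 (-0.38 to 0.48). In CtBP2 knockdown against scramble the medians were -0.01 (-1.78 to 1.06) and -0.08 (-0.89 to 0.66).

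In the arrays labelled CtBP1 knockdown, no interferon-stimulated gene passed the test against scramble. The limma fit called 0 of the 39 at an adjusted p under 0.05, and 0.0% of all 17958 genes. At an unadjusted p under 0.05 there was 1 gene, OAS3, an enzyme that makes the 2-5A signal for RNase L (2.56% of the set, against 4.79% of all genes, of which 2.87% were higher and 1.92% lower). The groups did not overlap in OAS3 and IFI6 alone (5.13%, against 14.4% of all genes), both higher in the arrays labelled CtBP1 knockdown, where 6.76% of all genes were higher and 7.59% lower without overlap. Both shares of the set lie below those of all genes. The 39 log2 differences ran from -1.0 for TRIM22 to 0.93 for OAS3, with a median of 0.01 against -0.005 over all genes, and the median half-width of their 95% intervals was 0.48. Differences above 0 numbered 20 of 39 (51.3%, against 49.1% of all genes). That split was 24 of 39 after renewed quantile normalization and 16 of 39 after centring each array on its median. Without scramble array 2, which leaves scramble array 1 as the lone control and assumes that it varies like the other groups, IFI44, BST2 and TRIM22 passed (7.69%), as did 18.2% of all genes.

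In the CtBP2 knockdown arrays, again no member passed, and the few largest differences went both ways. The limma fit called 0 of the 39, and 1 gene of all 17958 (0.00557%). At an unadjusted p under 0.05 there were 3, namely HERC5 and OAS3 on the higher side and IFITM1 on the lower (7.69%, against 10.2% of all genes, 7.19% higher and 2.98% lower). The groups did not overlap in 17 genes (43.6%, against 41.0% of all genes), a share near that of genes in general. Of these, 8 were higher in CtBP2 knockdown (DDX60, HERC5, HERC6, IFI6, IRF1, OAS3, PARP14 and RIGI) and 9 lower (CXCL10, IFIT2, IFITM1, IRF9, MX2, OAS2, RSAD2, SAMD9L and TRIM22), against 19.3% and 21.7% of all genes. After quantile normalization 2 of the 17 changed sign, OAS2 to 0.01 and RSAD2 to a value that rounds to 0.0. The log2 differences ran from -1.78 to 1.06, with a median of -0.109 against -0.02 over all genes. Differences above 0 numbered 16 of 39 (41.0%, against 47.3% of all genes), which became 24 of 39 after quantile normalization and 12 of 39 after centring. Without scramble array 2, IFI44, HERC5, BST2 and TRIM22 passed (10.3%), as did 22.0% of all genes.

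Between the knockdowns, where the control arrays do not enter the means, IFITM1 and IRF1 had the smallest unadjusted p and neither passed, while HERC5 differed by more than IRF1. The limma fit of the arrays labelled CtBP1 knockdown minus CtBP2 knockdown called 0 of the 39 and 0.0% of all genes. At an unadjusted p under 0.05 there were these 2 genes (5.13%, against 7.77% of all genes, 2.46% higher and 5.31% lower). The groups did not overlap in 7 genes (17.9%, against 32.0% of all genes): CXCL10, GBP2, IFITM1, MX2 and OASL were higher in the arrays labelled CtBP1 knockdown, and HERC5 and IRF1 lower, against 16.2% and 15.8% of all genes. The median log2 difference was 0.064 against 0.015 over all genes. Differences above 0 numbered 28 of 39 (71.8%, against 53.2% of all genes), but 21 of 39 after quantile normalization and 29 of 39 after centring. The 2 comparisons with scramble share the same control arrays and are not independent of each other.

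**Figure D2:**
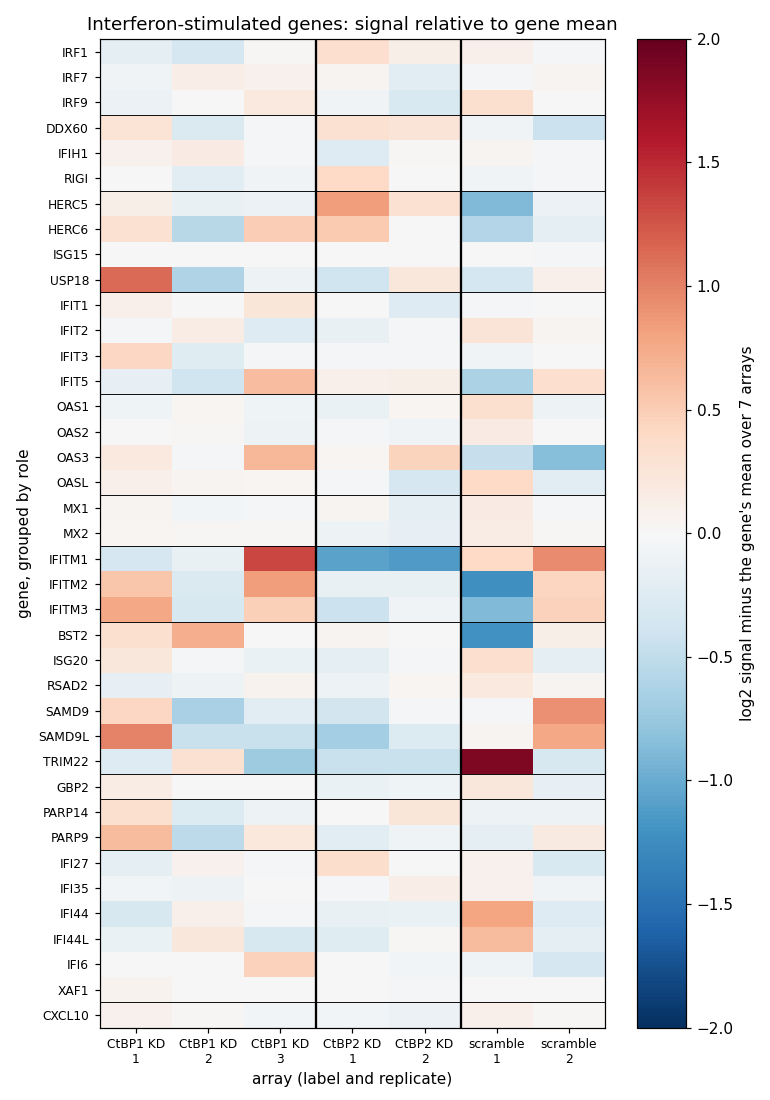
Log2 signal of each interferon-stimulated gene (rows, grouped by role) on each array (columns), minus the gene's mean over the 7 arrays; red is above and blue below that mean. The IFITM1 row is blue on both CtBP2 knockdown arrays, the OAS3 row is blue on both scramble arrays, and the largest single departure is TRIM22 on scramble array 1.

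**Figure D3:**
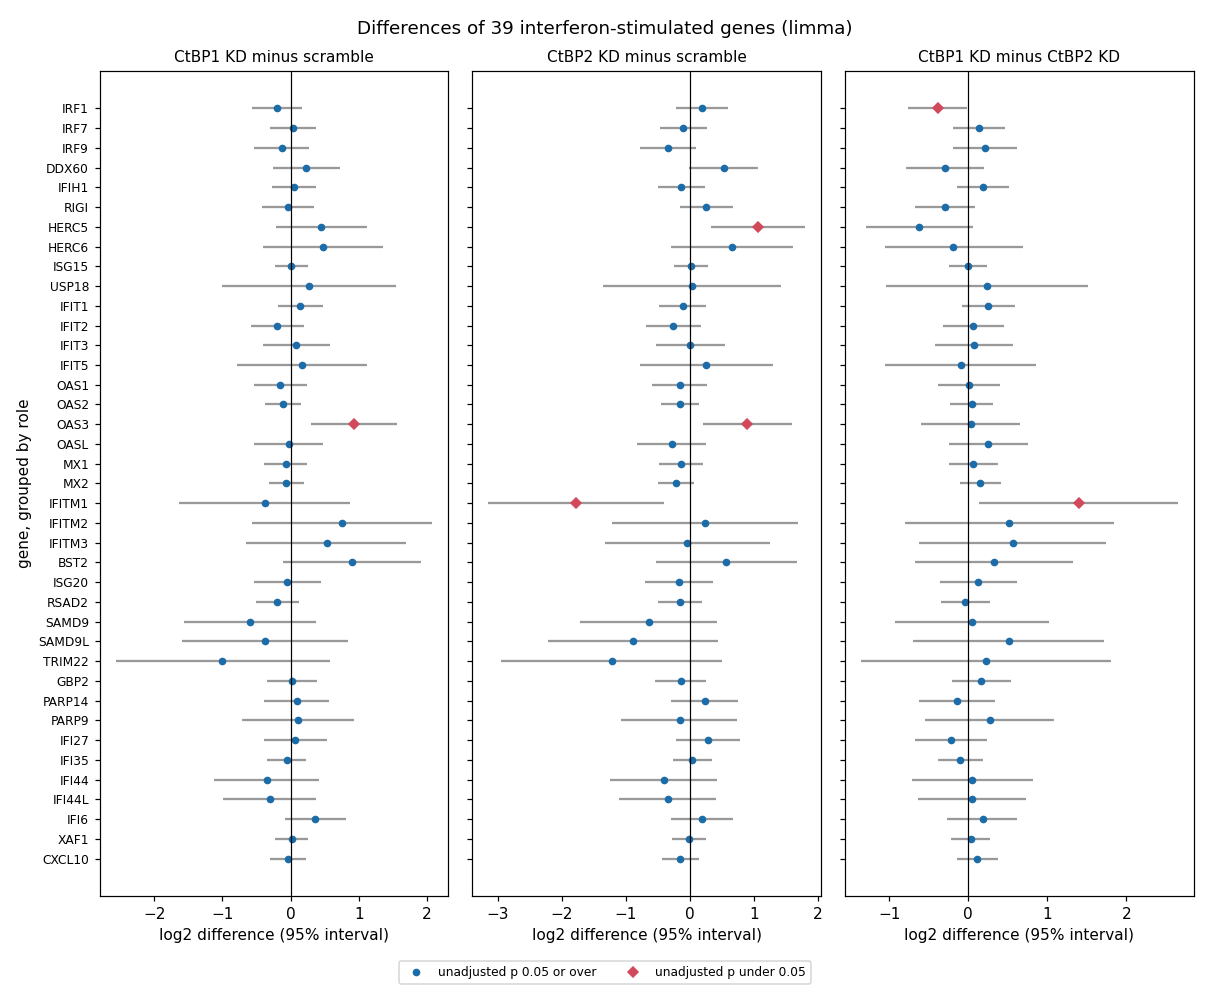
Log2 difference of each of the 39 genes (points) with its 95% interval from limma (bars) in the 3 comparisons; red diamonds have an unadjusted p under 0.05. Most intervals cross 0, and the exceptions are OAS3 in the left panel, HERC5, OAS3 and IFITM1 in the middle panel and IFITM1 and IRF1 in the right panel.

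The heat map of signals relative to each gene's mean shows no array on which the set as a whole was high or low. The median of the 39 centred signals was 0.07, -0.03 and -0.01 on arrays labelled CtBP1 knockdown, -0.04 and -0.03 on the CtBP2 knockdown arrays, and 0.06 and -0.02 on the scramble arrays. Scramble array 1 held the highest signal of 14 of the genes (35.9%, against 30.2% of all genes) and the lowest of 6 (15.4%, against 32.3%). The first array labelled CtBP1 knockdown held the highest of 7 (17.9%, against 12.4% of all genes), namely IFIT3, IFITM3, USP18, XAF1, PARP9, PARP14 and SAMD9L. The lowest signal lay on the second array labelled CtBP1 knockdown for 8 genes (20.5%, against 12.1% of all genes) and on the second CtBP2 knockdown array for 9 (23.1%, against 12.0%). The plot of differences with their intervals shows the widest ones for TRIM22, IFITM2, USP18 and IFITM1.

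Among the transcription factors, IRF1, which activates many of these promoters directly, separated the knockdowns from each other. The IRF1 probe read 3.36, 3.21 and 3.57 on arrays labelled CtBP1 knockdown, 3.88 and 3.67 on the CtBP2 knockdown arrays, and 3.65 and 3.51 on the scramble arrays. The scramble values lay between the means of the knockdowns. The log2 difference between the knockdowns was -0.39 ± 0.15 (SE, 95% interval -0.77 to -0.02, limma adjusted p = 0.604). IRF9, the DNA-binding partner of STAT2, had 3.21, 3.33 and 3.52 on arrays labelled CtBP1 knockdown, 3.26 and 3.02 on the CtBP2 knockdown arrays, and 3.65 and 3.33 on the scramble arrays. Its log2 difference in CtBP2 knockdown against scramble was -0.34 ± 0.18 (adjusted p = 0.534 in limma), with -0.19 against scramble array 2 alone and -0.5 against array 1 alone. IRF7, the amplifier of interferon-alpha production, stayed between 2.5 and 2.87 on all 7 arrays, and all groups overlapped.

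The RNA sensors showed small differences. DDX60, a helicase linked to RIG-I signalling, had signals of 3.05, 2.49 and 2.74 on arrays labelled CtBP1 knockdown, 3.08 and 3.03 on the CtBP2 knockdown arrays, and 2.71 and 2.35 on the scramble arrays. Both CtBP2 knockdown values lay above both scramble values, with a log2 difference of 0.53 ± 0.22 (SE, limma adjusted p = 0.495), which was 0.71 against scramble array 2 alone and 0.35 against array 1 alone. RIGI and IFIH1, which detect short and long double-stranded RNA in the cytoplasm, ranged from 2.24 to 2.85 and from 1.72 to 2.13 over the 7 arrays. Their differences from scramble were -0.04 and 0.05 in the arrays labelled CtBP1 knockdown and 0.25 and -0.13 in CtBP2 knockdown.

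In the ISG15 pathway the largest difference was that of a conjugating enzyme, while the probe of the modifier itself gave a dim and flat signal. HERC5, the ligase that attaches ISG15 to new proteins, had signals of 4.94, 4.68 and 4.71 on arrays labelled CtBP1 knockdown, 5.67 and 5.13 on the CtBP2 knockdown arrays, and 3.95 and 4.71 on the scramble arrays. The CtBP2 knockdown values were the highest, while the arrays labelled CtBP1 knockdown overlapped scramble array 2. The log2 difference in CtBP2 knockdown against scramble was 1.06 ± 0.3 (SE, 95% interval 0.33 to 1.8, 2.09-fold, limma adjusted p = 0.384). It was 0.68 against scramble array 2 alone and 1.45 against scramble array 1 alone, where limma's adjusted p was 0.0241 (0.0241 to 0.93 over all alternatives). Between the knockdowns it was -0.62 ± 0.28 (adjusted p = 0.703 in limma), and it was -0.35 without the first CtBP2 knockdown array and -0.89 without the second.

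HERC6, a relative of HERC5 that acts as the ISG15 ligase in mice, had 5.07, 4.2 and 5.26 on arrays labelled CtBP1 knockdown, 5.29 and 4.77 on the CtBP2 knockdown arrays, and 4.17 and 4.57 on the scramble arrays. The CtBP2 knockdown values lay above scramble, with a log2 difference of 0.66 ± 0.39 (limma adjusted p = 0.541). It was 0.41 without the first CtBP2 knockdown array, and 0.46 without scramble array 1. ISG15 itself, the ubiquitin-like modifier, gave 2.69 to 2.72 on every array. That dim signal took 3 different values over the 7 arrays, and whether it follows ISG15 RNA was not tested. USP18, the protease that removes ISG15 and restrains receptor signalling, had 3.56, 1.82 and 2.32 on arrays labelled CtBP1 knockdown, 2.02 and 2.65 on the CtBP2 knockdown arrays, and 2.08 and 2.52 on the scramble arrays. Its spread within the arrays labelled CtBP1 knockdown was wider than any difference between groups.

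The IFIT genes encode antiviral proteins that bind RNA, and all but IFIT5 lay under 3 on every array. IFIT1, IFIT2 and IFIT3 lay between 1.67 and 2.42 on all arrays. IFIT5 had a mean of 3.14 and was the most variable of the 4, with 2.98, 2.75 and 3.77 on arrays labelled CtBP1 knockdown, 3.25 and 3.27 on the CtBP2 knockdown arrays, and 2.52 and 3.48 on the scramble arrays. The log2 differences of the family from scramble were -0.2 to 0.17 in the arrays labelled CtBP1 knockdown and -0.26 to 0.26 in CtBP2 knockdown, with adjusted p of at least 0.557 in limma. IFIT5 changed sign with the control, at -0.32 against scramble array 2 alone and 0.65 against array 1 alone in the arrays labelled CtBP1 knockdown, and at -0.22 and 0.74 in CtBP2 knockdown.

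OAS3 was the only one of the 39 genes higher in both knockdown groups, without overlap and with an unadjusted p under 0.05 in each. How many of all genes meet both conditions was not counted. In the single comparisons 2.87% and 7.19% of all genes were higher at that p. The OAS3 probe read 4.5, 4.27 and 4.97 on arrays labelled CtBP1 knockdown, 4.35 and 4.76 on the CtBP2 knockdown arrays, and 3.85 and 3.46 on the scramble arrays. All 5 knockdown values lay above both controls, and the knockdowns overlapped each other. The log2 difference from scramble was 0.93 ± 0.26 in the arrays labelled CtBP1 knockdown (SE, 95% interval 0.3 to 1.56, 1.9-fold, limma adjusted p = 0.734). In CtBP2 knockdown it was 0.9 ± 0.28 (95% interval 0.21 to 1.59, 1.87-fold, limma adjusted p = 0.418). Both values rest on the same 2 control arrays. Against scramble array 2 alone they were 1.12 and 1.1, and against scramble array 1 alone 0.73 and 0.71.

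The other OAS genes did not show that pattern. OAS1 and OAS2, neighbours of OAS3 on chromosome 12 that also make 2-5A, ranged from 2.4 to 2.86 and from 1.76 to 2.02 over all arrays. OASL, a relative without that enzyme activity, had 2.05, 2.0 and 1.99 on arrays labelled CtBP1 knockdown, 1.91 and 1.62 on the CtBP2 knockdown arrays, and 2.35 and 1.74 on the scramble arrays. Its log2 difference between the knockdowns was 0.25 ± 0.2 (limma adjusted p = 0.929), and 0.1 without the second CtBP2 knockdown array. MX1 and MX2, GTPases that trap incoming viral particles, stayed between 1.73 and 2.08 and between 1.65 and 1.97. MX2 lay lower on the CtBP2 knockdown arrays, at 1.72 and 1.65, than on the arrays labelled CtBP1 knockdown, at 1.83 to 1.85, or on scramble, at 1.97 and 1.84. The difference from scramble was -0.22 ± 0.12 (adjusted p = 0.534 in limma).

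The IFITM genes, whose proteins sit in membranes and hinder viral fusion, differed among themselves in their place relative to the controls. IFITM1 read 5.72, 5.9 and 7.39 on arrays labelled CtBP1 knockdown, 4.98 and 4.91 on the CtBP2 knockdown arrays, and 6.45 and 7.0 on the scramble arrays. The CtBP2 knockdown values were the lowest of all 7, while the arrays labelled CtBP1 knockdown lay on both sides of the controls. The log2 difference in CtBP2 knockdown against scramble was -1.78 ± 0.56 (SE, 95% interval -3.15 to -0.41, limma adjusted p = 0.42), a 3.44-fold lower signal. Between the knockdowns it was 1.4 ± 0.51 (95% interval 0.14 to 2.65, 2.63-fold, limma adjusted p = 0.583). Without the third array labelled CtBP1 knockdown, the one at 7.39, it was 0.87. Against a single scramble array the CtBP2 knockdown difference was -2.06 with array 2 and -1.51 with array 1.

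IFITM2 and IFITM3 were not below both controls in CtBP2 knockdown, as IFITM1 was. IFITM2 had 8.15, 7.31 and 8.43 on arrays labelled CtBP1 knockdown, 7.45 and 7.45 on the CtBP2 knockdown arrays, and 6.38 and 8.03 on the scramble arrays. IFITM3 had 8.14, 7.06 and 7.85 on arrays labelled CtBP1 knockdown, 6.94 and 7.31 on the CtBP2 knockdown arrays, and 6.49 and 7.83 on the scramble arrays. In both genes the controls spanned the CtBP2 knockdown values. Their log2 differences from scramble in CtBP2 knockdown were 0.24 ± 0.59 and -0.04 ± 0.53 (limma adjusted p = 0.868 and 0.984). Against scramble array 2 alone they were -0.59 and -0.71, and against array 1 alone 1.07 and 0.64. Between the knockdowns both genes went the same way as IFITM1, at 0.52 ± 0.54 and 0.56 ± 0.48. Their groups overlapped there (limma adjusted p = 0.966 and 0.941). The 3 genes lie together on chromosome 11 and are closely similar, and whether their probes take up each other's transcripts was not tested.

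**Figure D4:**
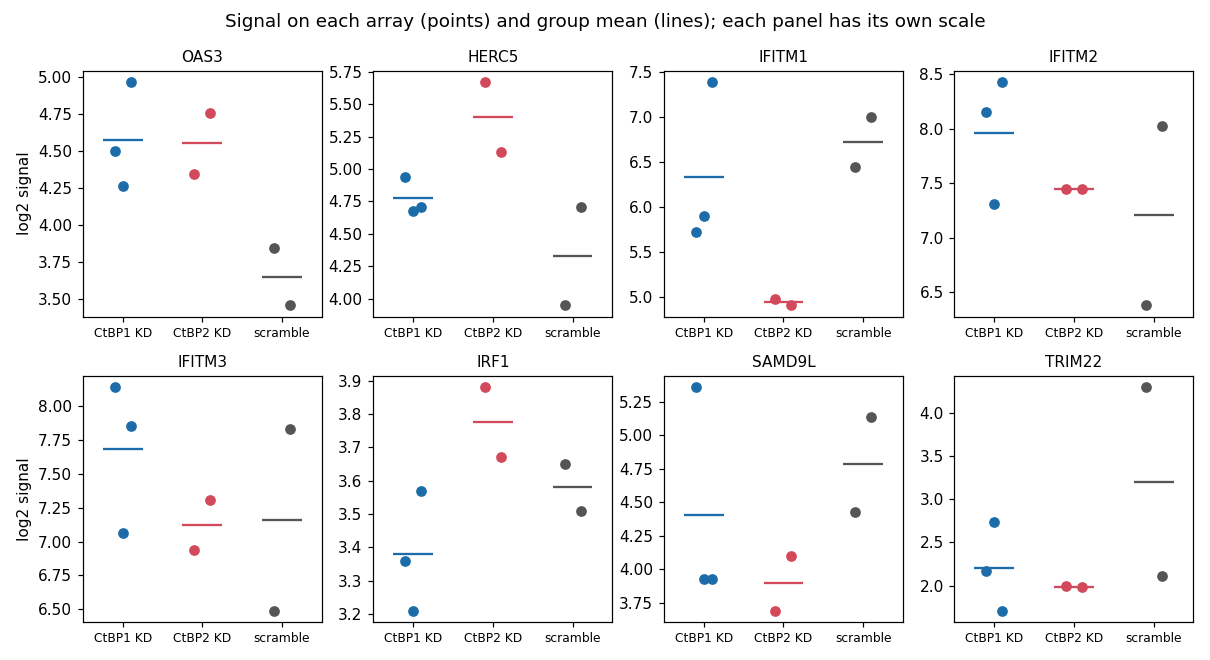
Log2 signal on each array (points) and the group mean (lines) for 8 genes, with arrays labelled CtBP1 knockdown in blue, CtBP2 knockdown in red and scramble in grey; each panel has its own scale. OAS3 is lowest on both scramble arrays and IFITM1 on both CtBP2 knockdown arrays, while in IFITM2, IFITM3 and TRIM22 the 2 scramble arrays lie far apart.

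The plot of signals on each array sets these patterns beside genes in which the controls lie far apart. TRIM22, a ubiquitin ligase that restricts retroviruses, had 2.17, 2.74 and 1.71 on arrays labelled CtBP1 knockdown, 1.99 and 1.98 on the CtBP2 knockdown arrays, and 4.3 and 2.11 on the scramble arrays. Scramble array 1 alone was high. The log2 differences from scramble, -1.0 ± 0.65 and -1.22 ± 0.71 (limma adjusted p = 0.734 and 0.539), became 0.1 and -0.12 against scramble array 2 alone. They were -2.09 and -2.31 against array 1 alone. The second, dimmer TRIM22 cluster gave 1.75 to 2.59 over the 7 arrays, with 2.13 on scramble array 1. BST2, or tetherin, which holds budding virus at the cell surface, had 4.95, 5.36 and 4.65 on arrays labelled CtBP1 knockdown, 4.69 and 4.63 on the CtBP2 knockdown arrays, and 3.42 and 4.76 on the scramble arrays. Its differences of 0.9 and 0.57 became 0.23 and -0.1 against scramble array 2 alone, and 1.57 and 1.24 against array 1 alone.

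SAMD9 and SAMD9L, neighbours on chromosome 7 that restrict poxviruses and slow growth, were lower on average in both knockdowns. SAMD9L had 5.36, 3.93 and 3.93 on arrays labelled CtBP1 knockdown, 3.69 and 4.1 on the CtBP2 knockdown arrays, and 4.43 and 5.14 on the scramble arrays. One array labelled CtBP1 knockdown was thus the highest of all 7, while both CtBP2 knockdown arrays lay below both controls. SAMD9 had 6.62, 5.57 and 5.98 on arrays labelled CtBP1 knockdown, 5.85 and 6.17 on the CtBP2 knockdown arrays, and 6.17 and 7.13 on the scramble arrays. The log2 differences from scramble in CtBP2 knockdown were -0.89 ± 0.54 for SAMD9L and -0.64 ± 0.44 for SAMD9 (limma adjusted p = 0.545 and 0.561). Against scramble array 2 alone they were -1.24 and -1.12, and against array 1 alone -0.53 and -0.16. In the arrays labelled CtBP1 knockdown SAMD9L and SAMD9 differed from scramble by -0.38 and -0.59. These became -0.73 and -1.08 against scramble array 2 alone, and -0.02 and -0.11 against array 1 alone.

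The remaining genes showed small differences. IFI6, a mitochondrial protein that delays cell death, had 4.31, 4.3 and 4.76 on arrays labelled CtBP1 knockdown, 4.31 and 4.25 on the CtBP2 knockdown arrays, and 4.21 and 3.97 on the scramble arrays. All 5 knockdown values lay above both controls, with log2 differences of 0.36 ± 0.18 and 0.19 ± 0.2 (limma adjusted p = 0.734 and 0.685). In CtBP2 knockdown IFI6 was at 0.31 against scramble array 2 alone, at 0.07 against array 1 alone, and at 0.01 after quantile normalization. In the arrays labelled CtBP1 knockdown it was at 0.24 against array 1 alone, and at 0.21 without the third of them. PARP14 and PARP9, ADP-ribosyltransferase relatives that modulate STAT signalling, ranged from 4.69 to 5.28 and from 2.49 to 3.64. IFI44 and IFI44L were highest on scramble array 1, at 2.88 and 2.36, and lay between 1.77 and 2.19 and between 1.42 and 1.96 on the others. IFI27, IFI35, XAF1, ISG20 and RSAD2 had differences from scramble of -0.2 to 0.29 in either knockdown. The guanylate-binding protein GBP2 and the T cell chemokine CXCL10 stayed between 1.38 and 1.78 and between 1.28 and 1.49.

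The controls changed the sign of many differences. The 2 scramble arrays differed by more than 1 in 5 of the 39 genes (12.8%, against 15.9% of all genes), which were TRIM22, IFI44, IFITM2, IFITM3 and BST2. Taken at 2 decimals, the difference from scramble had opposite signs with scramble array 1 alone and with scramble array 2 alone in 17 of 39 genes in the arrays labelled CtBP1 knockdown and in 14 of 39 in CtBP2 knockdown. IFITM2 in CtBP2 knockdown was such a gene, at 1.07 against array 1 and -0.59 against array 2. How many of all genes change sign in this way was not counted, so the counts do not set the 39 apart. The plot of one control against the other shows OAS3 on the same side in both knockdowns, and IFITM1 and HERC5 in CtBP2 knockdown. In these the groups did not overlap, which must give the same sign with either control.

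**Figure D5:**
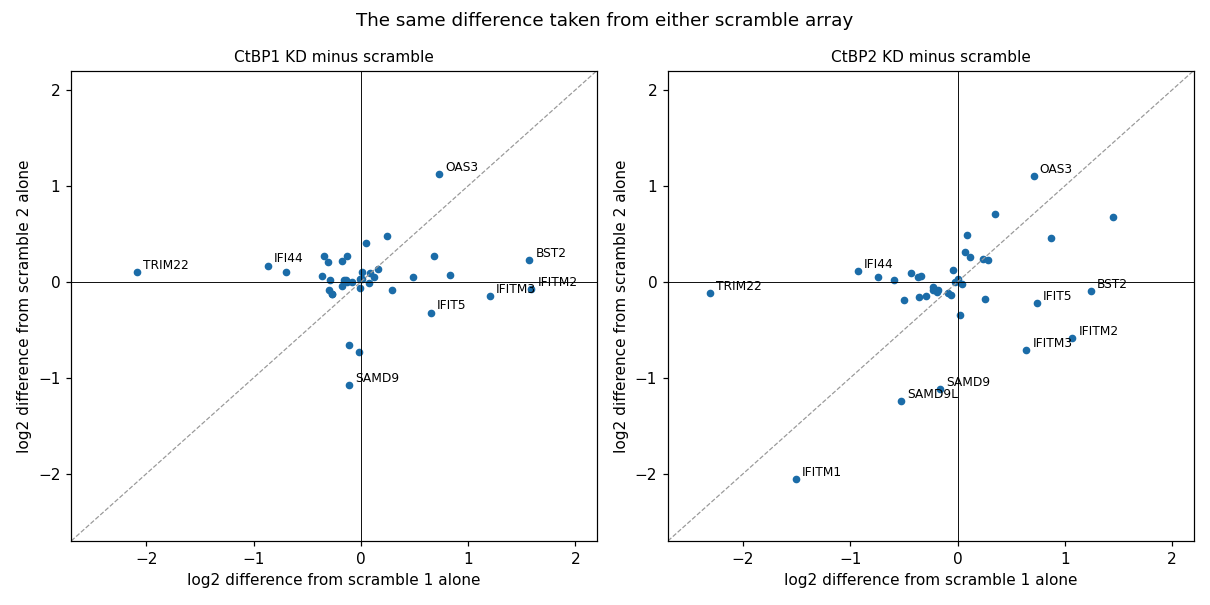
Log2 difference of each of the 39 genes taken from scramble array 1 alone (x axis) and from scramble array 2 alone (y axis), with the arrays labelled CtBP1 knockdown on the left and CtBP2 knockdown on the right; the dashed line marks equal values. Genes at the upper left and lower right change sign with the control used, 17 on the left and 14 on the right. The share over all genes was not counted.

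Upstream of these genes, no interferon or pathway gene passed either. Of 21 listed interferons 14 were measured, and IFNB1, the first type I interferon made after infection, lay between 1.19 and 1.49 on all arrays. Among 10 receptor, kinase and STAT genes measured, 0 passed in any comparison in limma, and at an unadjusted p under 0.05 there were 2 in the arrays labelled CtBP1 knockdown against scramble, 2 in CtBP2 knockdown against scramble and 1 between the knockdowns, where 4.79%, 10.2% and 7.77% of all genes were under it. IFNAR2, a receptor chain, had 4.45, 4.11 and 4.71 on arrays labelled CtBP1 knockdown, 5.04 and 5.03 on the CtBP2 knockdown arrays, and 5.03 and 4.93 on the scramble arrays. The arrays labelled CtBP1 knockdown lay below the other 4, by -0.56 ± 0.19 against scramble and -0.61 ± 0.19 against CtBP2 knockdown (limma adjusted p = 0.734 and 0.493). IFNAR1, the other chain, lay between 4.38 and 5.26 and its groups overlapped in both comparisons with scramble.

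TYK2, the kinase bound to IFNAR1, had 3.95, 4.33 and 4.56 on arrays labelled CtBP1 knockdown, 4.08 and 4.15 on the CtBP2 knockdown arrays, and 3.3 and 3.72 on the scramble arrays. All 5 knockdown values lay above both controls, by 0.77 ± 0.22 and 0.6 ± 0.24 (limma adjusted p = 0.734 and 0.486), and by 0.56 and 0.39 against scramble array 2 alone. JAK1, the kinase bound to IFNAR2, had 7.73, 8.02 and 7.54 on arrays labelled CtBP1 knockdown, 8.03 and 7.94 on the CtBP2 knockdown arrays, and 6.88 and 7.62 on the scramble arrays. It differed from scramble by 0.52 ± 0.25 and 0.74 ± 0.28 (adjusted p = 0.734 and 0.468 in limma), but by 0.15 and 0.37 against scramble array 2 alone. Under the CtBP1 knockdown label the JAK1 difference was 0.89 against array 1 alone.

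Of the 12 genes that lead from nucleic acid sensing to interferon, all were measured and 0 passed in limma. At an unadjusted p under 0.05 there were 2, 1 and 1 in the 3 comparisons, beside 4.79%, 10.2% and 7.77% of all genes. STING1, the adaptor for cytoplasmic DNA, had 4.31, 4.54 and 4.42 on arrays labelled CtBP1 knockdown, 3.89 and 3.98 on the CtBP2 knockdown arrays, and 3.76 and 4.17 on the scramble arrays, so the knockdowns did not overlap (0.49 ± 0.16, limma adjusted p = 0.522). Its difference from scramble in the arrays labelled CtBP1 knockdown was 0.46 ± 0.16, and 0.25 against scramble array 2 alone. ZBP1, a sensor of Z-form nucleic acid, differed from scramble by -0.64 ± 0.2 in the arrays labelled CtBP1 knockdown, and TRAF3, an adaptor, by 0.7 ± 0.27 in CtBP2 knockdown (limma adjusted p = 0.734 and 0.478). Against scramble array 2 alone these were -0.34 and 0.32, and against array 1 alone -0.94 and 1.08.

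The 10 genes listed as negative regulators were all measured, and 0 passed in limma, with 1, 1 and 3 at an unadjusted p under 0.05, beside 4.79%, 10.2% and 7.77% of all genes. They were IRF2 in the arrays labelled CtBP1 knockdown against scramble, TRIM25 in CtBP2 knockdown against scramble, and IRF2, TRIM25 and PTPN2 between the knockdowns. IRF2, which competes with IRF1 for the same sites, had 5.89, 5.85 and 5.75 on arrays labelled CtBP1 knockdown, 5.1 and 5.44 on the CtBP2 knockdown arrays, and 5.38 and 5.44 on the scramble arrays. The arrays labelled CtBP1 knockdown were the highest, by 0.56 ± 0.14 against CtBP2 knockdown and 0.42 ± 0.14 against scramble (limma adjusted p = 0.376 and 0.734). TRIM25 stands on that list although it is best known as a ligase that activates RIG-I, and it had 7.06, 6.89 and 7.18 on arrays labelled CtBP1 knockdown, 6.68 and 6.4 on the CtBP2 knockdown arrays, and 7.13 and 7.12 on the scramble arrays. The CtBP2 knockdown values were the lowest, with a log2 difference from scramble of -0.58 ± 0.16 (limma adjusted p = 0.374). PTPN2, a phosphatase that acts on JAK and STAT proteins, had 4.63, 5.04 and 4.9 on arrays labelled CtBP1 knockdown, against 5.2 and 5.29 on the CtBP2 knockdown arrays, a log2 difference of -0.39 ± 0.15 (limma adjusted p = 0.604).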

How the data were processed

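Gene expression was measured on 7 Affymetrix Human Gene 1.1 ST arrays. The deposited values are the authors' log2 signals for each transcript cluster; the submitters' processing notes name Affymetrix Expression Console and RMA. RMA equalises probe distributions, which can hide a shift shared by most genes. Of 33297 clusters, GEO's annotation gives 1 symbol for 19181 and several for 2055, and it does not list 12061. Symbols were updated by Entrez identifier to RefSeq (GRCh38.p14), and the brightest cluster of each gene was kept, which left 17958 genes. The array number limits the precision.

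The groups come from the labels. Group means were fitted in limma 3.58.1 (R 4.3.3) by lmFit and default eBayes over all 7 arrays with 4 residual degrees of freedom, with two-sided p adjusted by Benjamini-Hochberg over all genes at a threshold of 0.05. Values after ± are the standard errors of that fit, which was checked on simulated data. The members and lists were chosen with earlier results of these data known. Genes given with values were, per comparison, up to 8 members with groups that did not overlap and the smallest unadjusted p, their family mates and the IRF transcription factors; over the 4 pathway lists as one they were IFNAR1, IFNAR2, JAK1, TYK2, IFNB1 and, per comparison, up to 4 genes with the smallest unadjusted p. One further pathway gene that the rule names by symbol is not reported here. Values of IFIT, PARP and SAMD9 genes, whose families the rule also lists, and of BST2, IFI44, IFI44L and PTPN2, which it does not, were given after they had been seen. Alternatives were quantile normalization, median centring, leaving out dim genes or genes with identical values, averaging clusters, a mean-variance trend, robust eBayes, only the groups compared, array weights, a replicate block and leaving out each array.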

Additional observations from a re-analysis of the deposited data

How the results depend on the processing

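None of the differences of genes picked by groups that did not overlap and smallest p changed sign under any alternative run. For the runs without an array this was fixed by the pick, since groups that do not overlap keep their order. A mean-variance trend, robust eBayes and the choice of genes or groups do not alter the difference itself. With the control used, TRIM22 changed sign in the arrays labelled CtBP1 knockdown, BST2 in CtBP2 knockdown, and IFI44, IFITM2 and IFITM3 in both. The number of members passing was 0 under all of them except without scramble replicate 2, and ran from 0 to 3 (arrays labelled CtBP1 knockdown against scramble), 0 to 4 (CtBP2 knockdown against scramble) and 0 to 0 (between the knockdowns) when each array was left out; HERC5 (1.45) and TRIM22 (-2.31) in CtBP2 knockdown passed then. Over all genes the counts without an array ran from 0 to 3262, from 0 to 3952 and from 0 to 0. The single gene called in CtBP2 knockdown against scramble became 0 with quantile normalization, robust eBayes, only the 2 groups compared, array weights or the replicate block, and array weights called 272 genes between the knockdowns. The median difference in the arrays labelled CtBP1 knockdown was 0.097 with quantile normalization, 0.098 without dim genes, -0.033 without tied genes and -0.07 to 0.027 without an array. In CtBP2 knockdown it was 0.012, -0.166 after centring, 0.189 without dim genes and -0.124 to -0.047 without an array, so its sign depended on the scaling and on the filter. Between the knockdowns it was 0.117 with the replicate block and 0.033 to 0.117 without an array. Same-numbered arrays correlated at -0.354 to 0.0977 in their deviations from the group means. In groups of 2 arrays these deviations mirror each other, so this cannot exclude a batch shared by number. The replicate block was not used in the main fit. No member passed with it or in the main fit, so it had no call to remove. At an unadjusted p under 0.05 in limma it added IFITM1 in the arrays labelled CtBP1 knockdown against scramble. There 2.43% of all genes were under that p, against 4.79% in the main fit. With 2 or 3 arrays a group, the 95% intervals of the members had median half-widths of 0.48, 0.53 and 0.48 on the log2 scale before adjustment, so a difference that did not pass is not shown to be absent. With scramble array 1 or 2 left out, the lone control was assumed to vary like the other groups, and the cause of the moved counts was not tested.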
